A study of Mus musculus with 20 samples.

Results

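The genes followed here, 10 in all, belong to the oligodendrocyte lineage: Pdgfra, Cspg4 and Megf11, which mark oligodendrocyte precursor cells (OPCs), the transcription factors Olig1, Olig2, Sox10 and Myrf, and Gpr17, Bcas1 and Enpp6, which mark cells on the way to myelination. The list is one of named genes with no threshold on their values, drawn up with earlier results of these data known, and each was found by its Ensembl identifier, so that 10 of the 46078 genes in the count tables are described. All 10 were detected in every library. RNA was sequenced from brain tissue of aged (18 months) male wild-type C57BL/6J mice, 7 weeks after DH stroke, in which the distal middle cerebral artery is occluded and the mouse is then kept in low oxygen. All mice had the stroke. Injections under the skin began at week 1 and were given 3 times per week for 6 weeks, as PBS vehicle in 5 mice and as HPBCD (hydroxypropyl-β-cyclodextrin, a cyclic sugar that takes up cholesterol) at 4 g/kg in the other 5. Each mouse gave 2 tissues, the peri-infarct tissue left beside the removed infarct and the matching tissue of the other hemisphere (contralateral), which gave 4 groups of 5 libraries and 20 libraries in all. Both hold every cell type of the region. Treatment was read from the sample titles, and since no gene was altered by design, the counts hold no check of that label. In peri-infarct tissue the libraries labelled HPBCD had the lower neuronal markers (5 of 6 called lower) and the higher fibroblast and astrocyte markers (8 of 8 and 2 of 6 called higher), and also the higher mature myelin genes (3 of 12 called higher). Over all genes, 12.4% were called higher and 9.00% lower there. The myelin count ran from 0 to 11 when 1 library was left out. An exchange of the treatment labels cannot be told apart from an effect of treatment in these counts, so the direction of each difference between treatments rests on the submitters' labels alone.

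Oligodendrocytes arise from OPCs, which divide and spread through the adult brain and respond to PDGF through the receptor encoded by Pdgfra. Cells that leave the precursor state pass through a committed stage marked by Gpr17 and Bcas1 and a newly formed stage marked by Enpp6, and Myrf then switches on the genes of myelin. After ischemia OPCs gather around the lesion, where many fail to mature.

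The RefSeq promoter table for GRCm38.p6 held 4 of the 10 genes (Pdgfra, Cspg4, Olig2 and Enpp6), and those of Megf11, Olig1, Sox10, Gpr17, Bcas1 and Myrf are not shown. The 250 bases before the RefSeq start are given for Pdgfra, at the precursor end of the lineage, and Enpp6, at the newly formed end, since these were the genes whose levels were set against each other. Capitals mark matches to the E-box CANNTG, bound by basic helix-loop-helix factors such as OLIG2, the SOX motifs ACAAAG and ACAATG, and the MYRF motif CTGGCAC, searched on both strands.
Pdgfra, chr5:75152001-75152250, plus strand: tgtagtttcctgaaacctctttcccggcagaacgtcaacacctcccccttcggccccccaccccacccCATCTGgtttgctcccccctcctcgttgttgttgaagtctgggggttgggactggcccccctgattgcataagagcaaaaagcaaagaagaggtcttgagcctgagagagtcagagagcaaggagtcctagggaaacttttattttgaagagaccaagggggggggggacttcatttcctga
Enpp6, chr8:46986637-46986886, plus strand: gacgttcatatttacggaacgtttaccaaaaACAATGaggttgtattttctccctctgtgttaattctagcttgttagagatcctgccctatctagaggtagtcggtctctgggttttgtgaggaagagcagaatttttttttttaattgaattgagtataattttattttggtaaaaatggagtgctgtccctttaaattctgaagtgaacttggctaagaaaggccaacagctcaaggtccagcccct
The Pdgfra window holds 1 E-box, which 66.2% of the 32851 windows of this length in the table also hold. The Enpp6 window holds 1 SOX motif of the form ACAATG, found in 10.7% of windows, and so does the Olig2 window. None of the 4 windows held ACAAAG (16.5% of windows) or CTGGCAC (4.19%). These are matches of letters within these windows. G and C made up 54.4% of the Pdgfra window and 38.4% of the Enpp6 window.

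For the annotated GRCm38 genome, the precursor genes lie at chr5:75152292-75198215 (Pdgfra, ENSMUSG00000029231, plus strand), chr9:56865033-56899870 (Cspg4, ENSMUSG00000032911, plus) and chr9:64385626-64709205 (Megf11, ENSMUSG00000036466, plus). Olig2 (ENSMUSG00000039830, chr16:91225457-91228677) and Olig1 (ENSMUSG00000046160, chr16:91269772-91271933) are neighbours on the plus strand, 41.1 kb apart. Sox10 (ENSMUSG00000033006) is at chr15:79154908-79165240 and Myrf (ENSMUSG00000036098) at chr19:10208272-10240748, both on the minus strand. Gpr17 (ENSMUSG00000052229) is at chr18:31942997-31949636 and Bcas1 (ENSMUSG00000013523) at chr2:170346991-170427845, both on the minus strand, and Enpp6 (ENSMUSG00000038173) is at chr8:46986887-47096762 on the plus strand. All 10 are protein-coding and were counted over whole genes. Exon bases of 4 of them are shared with a gene on the opposite strand, and the strand setting of the counting is not given in the sources used here. The shared stretch covers 11.7% of the exon bases of Bcas1 with Bcas1os1, which had 0 to 4 counts per library, and 3.62% of those of Gpr17 with Lims2, which had 72 to 232. The opposite-strand partners of Pdgfra and Olig1 had 0 counts in every library.

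Levels are given as CPM (counts scaled to a common library size, here with TMM factors). Libraries held 14445021 to 22171627 gene counts, at which 3 counts equal 0.135 to 0.208 CPM by library totals alone, without those factors. Every one of the 10 genes passed the filter on low counts in every comparison, and the lowest count of any of them was 27 (Enpp6 in 1 library). Of the contralateral libraries, 2 stood apart. The vehicle contralateral library of mouse 1 had 3375 CPM summed over 8 markers of striatal neurons against 197 to 283 in the other 4 of its group, and the HPBCD contralateral library of mouse 4 had 8.03% ambiguous reads against 3.94% to 4.16% in the other 19. Counts of members called in the region comparisons were the same without these libraries (4 in vehicle mice and 9 in HPBCD mice).

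Peri-infarct tissue was first compared with contralateral tissue within each treatment. In vehicle mice, Pdgfra, Cspg4 and Gpr17 were higher beside the infarct by 1.44-fold to 1.66-fold, Megf11 was lower (0.706-fold), and the other 6 genes did not pass the test. In HPBCD mice, 8 of the 10 were higher, from 1.39-fold for Olig1 to 4.51-fold for Enpp6, Megf11 was again lower (0.532-fold), and Olig2 did not pass. A gene was called at a Benjamini-Hochberg adjusted p under 0.05 over all genes in edgeR's quasi-likelihood test, fitted with no term for the mouse. Over all genes tested, 20.2% were called in vehicle mice (10.5% higher and 9.70% lower), against 4 of the 10 members. Those 3195 genes became 2000 without the contralateral library of mouse 5. The share over all genes was 54.6% in HPBCD mice (30.3% higher and 24.3% lower), against 9 of the 10. The median log2 fold change of the members was 0.39 in vehicle mice, where that of all genes was 0.01, and 0.93 in HPBCD mice, where that of all genes was 0.03. With the mouse as a term, 6 members were called in vehicle mice, where 3053 genes were in all, and 9 in HPBCD mice, where 8860 were. In tissue RNA, fewer cells of a type and less RNA per cell cannot be told apart.

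**Figure D1:**
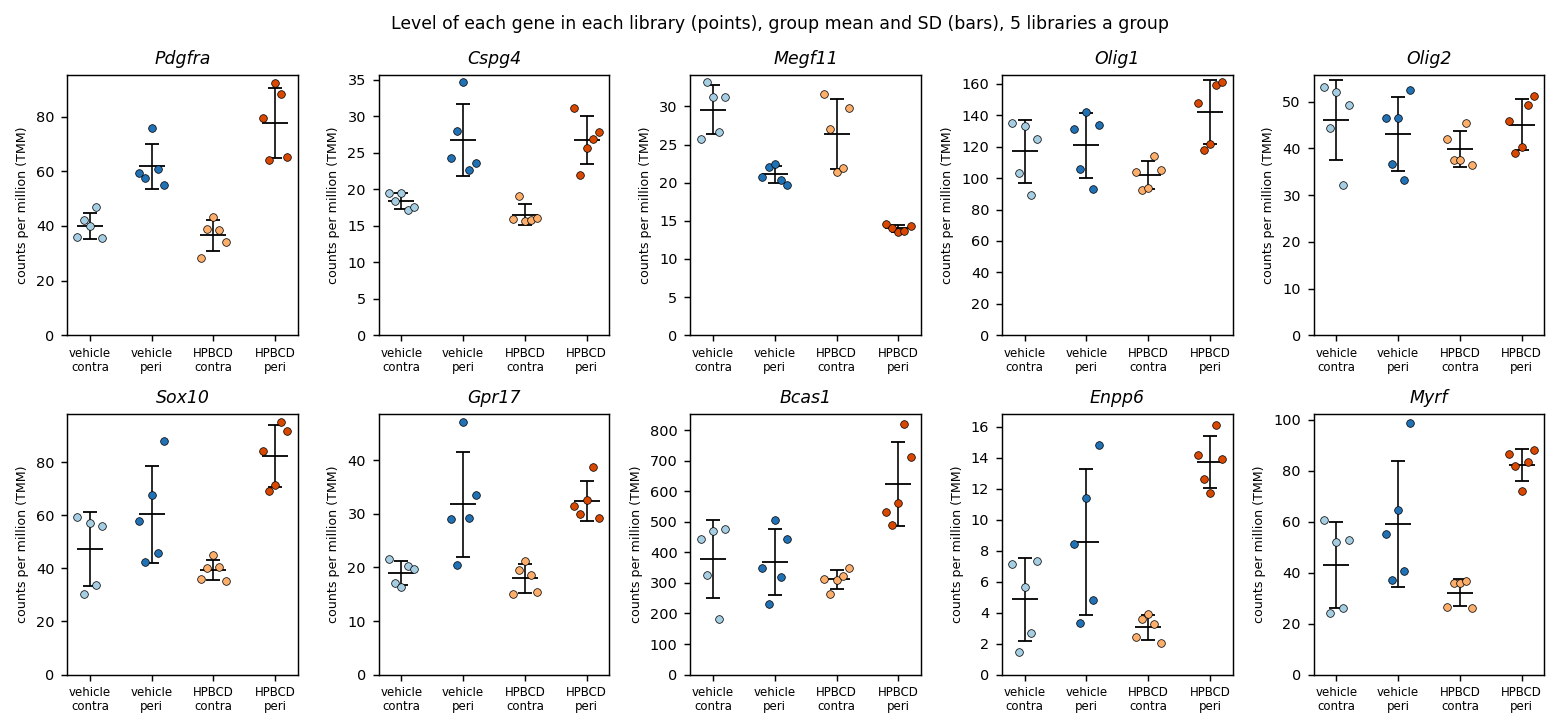
CPM (TMM-scaled, linear axes from 0) of the 10 genes in each of the 20 libraries. Points are libraries, bars are the mean and SD of 5 libraries, and the 5 HPBCD peri-infarct libraries lie above the 5 HPBCD contralateral ones for every gene except Olig2, which overlaps, and Megf11, which lies below.

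Among the precursor genes, Pdgfra, the receptor through which PDGF drives OPC division, stood at 35.8, 42.3, 39.9, 47.0 and 35.6 CPM in the contralateral tissue of vehicle mice 1 to 5 and at 59.5, 57.5, 75.9, 60.9 and 55.1 CPM in their peri-infarct tissue. Its contralateral levels in HPBCD mice 1 to 5 were 28.3, 38.7, 43.4, 38.6 and 34.3 CPM, and its peri-infarct levels were 79.4, 64.3, 92.2, 88.1 and 65.2 CPM. In both treatments every peri-infarct library lay above every contralateral one. The log2 difference was 0.61 (SE 0.11, adjusted p = 0.00420) in vehicle mice and 1.09 (SE 0.13, adjusted p = 2.00e-05) in HPBCD mice. Fibroblasts also express Pdgfra, and of 9 fibroblast and meningeal markers, 8 were tested, of which 1 was called higher beside the infarct in vehicle mice and 8 in HPBCD mice. Their summed level was 67.3 to 412 CPM in vehicle contralateral, 124 to 470 in vehicle peri-infarct, 81.8 to 325 in HPBCD contralateral and 616 to 1546 in HPBCD peri-infarct libraries, with no marker at 0 throughout. Their part in the Pdgfra result was not tested.

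Cspg4 encodes the proteoglycan NG2 on the surface of OPCs. It ranged from 17.2 to 19.5 CPM in vehicle contralateral and from 22.6 to 34.7 CPM in vehicle peri-infarct libraries, and from 15.7 to 19.1 CPM and from 22 to 31.1 CPM in those of HPBCD mice. The groups of each treatment did not overlap. The log2 difference was 0.52 (SE 0.12, adjusted p = 0.0129) in vehicle mice and 0.69 (SE 0.10, adjusted p = 8.06e-05) in HPBCD mice. Pericytes carry NG2 as well, and 1 of 9 pericyte markers was called higher in vehicle mice and 5 of 9 in HPBCD mice. Summed over the list, these markers reached 187 to 281 CPM and 199 to 282 CPM in the contralateral and peri-infarct libraries of vehicle mice, and 208 to 288 CPM and 322 to 456 CPM in those of HPBCD mice, with none at 0 throughout and their part not tested.

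Megf11, a cell-surface protein with EGF-like repeats that OPCs and some neurons express, went the other way. Vehicle mice 1 to 5 had 25.7, 33.2, 31.2, 26.6 and 31.3 CPM in contralateral tissue and 20.8, 22, 22.4, 20.4 and 19.7 CPM in peri-infarct tissue. HPBCD mice 1 to 5 had 31.6, 27.1, 21.4, 21.9 and 29.8 CPM in contralateral tissue and 14.6, 14, 13.5, 13.7 and 14.3 CPM in peri-infarct tissue. Every peri-infarct library lay below every contralateral one of its treatment, and the 5 HPBCD peri-infarct libraries lay below all others. Megf11 fell by 0.50 on the log2 scale in vehicle mice (SE 0.09, adjusted p = 0.00423) and by 0.91 in HPBCD mice (SE 0.12, adjusted p = 3.10e-05). Neuronal markers moved the same way: 2 of 6 were called lower in vehicle mice and 6 of 6 in HPBCD mice, with summed levels of 7814 to 9357 CPM in vehicle contralateral, 4877 to 6767 in vehicle peri-infarct, 9601 to 10190.4 in HPBCD contralateral and 2698 to 4988 in HPBCD peri-infarct libraries. None of these markers was at 0 throughout, and their part in the Megf11 result was not tested.

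Of the transcription factors, the neighbours Olig1 and Olig2 encode basic helix-loop-helix proteins that specify the lineage. Olig1 was at 135, 103, 133, 89.2 and 125 CPM in vehicle contralateral tissue and at 131, 106, 142, 93.3 and 134 CPM in vehicle peri-infarct tissue. In HPBCD mice it was at 104, 92.3, 93.9, 114 and 105 CPM in contralateral and at 148, 118, 122, 159 and 161 CPM in peri-infarct tissue. The vehicle groups overlapped almost completely and the HPBCD groups did not overlap. The log2 difference of Olig1 was 0.04 (95% interval -0.27 to 0.35, adjusted p = 0.864) in vehicle mice and 0.47 (SE 0.10, adjusted p = 0.00205) in HPBCD mice. Olig2, the factor without which the lineage does not form, ranged from 32.1 to 53.2 CPM in the 2 vehicle groups together and from 36.5 to 51.3 CPM in the 2 HPBCD groups together. Its groups overlapped in both treatments, with a log2 difference of -0.11 (interval -0.45 to 0.22, adjusted p = 0.639) in vehicle mice and 0.18 (interval -0.03 to 0.39, adjusted p = 0.127) in HPBCD mice. When libraries were scaled by their totals alone, which moves the median log2 fold change of all genes in HPBCD mice to 0.194, Olig2 was at 0.35 and passed the test (adjusted p = 0.00637).

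Sox10 encodes the factor that holds cells in the lineage and, with Myrf, drives myelin genes. Vehicle mice 1 to 5 had 59.4, 30.2, 57.1, 33.8 and 56.0 CPM in contralateral tissue and 58.0, 42.5, 67.6, 45.9 and 87.9 CPM in peri-infarct tissue. HPBCD mice 1 to 5 had 36.0, 40.1, 44.9, 40.5 and 35.3 CPM in contralateral and 84.4, 69.0, 71.5, 95 and 91.8 CPM in peri-infarct tissue. Vehicle mice 2 and 4 were low in both tissues, the vehicle groups overlapped, and the HPBCD groups did not. The log2 difference was 0.34 (SE 0.23, adjusted p = 0.329) in vehicle mice and 1.06 (SE 0.11, adjusted p = 4.51e-06) in HPBCD mice. With the mouse as a term, which sets each mouse against itself, Sox10 was also called in vehicle mice (0.35, adjusted p = 0.0428). Without the vehicle peri-infarct library of mouse 5, the highest of its group, the vehicle value was 0.17 (adjusted p = 0.630). Schwann cells express Sox10 too. Of 5 Schwann cell markers 3 were tested, of which 0 were called higher in vehicle mice by edgeR (0 with an unadjusted p under 0.05) and 2 in HPBCD mice, and their sum was 10 to 23.1 CPM over the 20 libraries. Of these, Pmp2, a myelin gene of peripheral nerve, was at 0 counts in all 20 libraries. In the shallowest library this allows up to 0.208 CPM by library totals alone, without TMM factors.

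Myrf, the factor that turns on myelin genes, was at 60.7, 24.1, 52.0, 26.1 and 52.8 CPM in the contralateral tissue of vehicle mice 1 to 5 and at 55.2, 37.1, 64.5, 40.6 and 98.6 CPM in their peri-infarct tissue. In HPBCD mice it was at 26.4, 35.8, 36.1, 36.6 and 26.2 CPM in contralateral tissue and at 86.6, 81.7, 71.9, 83.3 and 88.0 CPM in peri-infarct tissue. Again vehicle mice 2 and 4 were the low ones, the vehicle groups overlapped and the HPBCD groups were apart. The log2 difference was 0.44 (SE 0.31, adjusted p = 0.338) in vehicle mice and 1.36 (SE 0.12, adjusted p = 1.85e-06) in HPBCD mice. The vehicle value was 0.19 (adjusted p = 0.690) without the peri-infarct library of mouse 5.

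Of the genes of the later stages, Gpr17, a receptor of committed precursors that holds back maturation, stood at 21.6, 17.1, 16.3, 20.3 and 19.7 CPM in vehicle contralateral and at 29.1, 20.4, 47.1, 29.3 and 33.5 CPM in vehicle peri-infarct tissue. HPBCD mice had 15.0, 19.6, 21.2, 18.6 and 15.4 CPM in contralateral and 31.5, 29.9, 32.6, 38.7 and 29.3 CPM in peri-infarct tissue. The vehicle groups overlapped only through the peri-infarct library of mouse 2, and the HPBCD groups did not overlap. Gpr17 was higher beside the infarct by 0.73 (SE 0.19, adjusted p = 0.0179) in vehicle mice and by 0.85 (SE 0.12, adjusted p = 5.97e-05) in HPBCD mice.

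Bcas1 marks early myelinating cells and stays on in mature oligodendrocytes. Its levels were 444, 325, 471, 181 and 477 CPM in vehicle contralateral and 348, 231, 505, 319 and 445 CPM in vehicle peri-infarct tissue. In HPBCD mice they were 314, 264, 310, 322 and 349 CPM in contralateral and 531, 491, 563, 822 and 713 CPM in peri-infarct tissue. Bcas1 was higher beside the infarct than on the other side in 2 of 5 vehicle mice (3 and 4), and the vehicle groups overlapped. It was higher in 5 of 5 HPBCD mice, whose groups were apart. The log2 difference was -0.05 (interval -0.62 to 0.52, adjusted p = 0.916) in vehicle mice, where scaling by library totals alone gave 0.04, and 1.00 (SE 0.14, adjusted p = 6.30e-05) in HPBCD mice.

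Enpp6, a choline phosphodiesterase of newly formed oligodendrocytes, had the lowest counts of the 10 (27 to 338 per library) and the largest region difference in HPBCD mice. It was at 7.15, 1.47, 5.63, 2.66 and 7.33 CPM in the contralateral tissue of vehicle mice 1 to 5 and at 8.41, 3.33, 11.4, 4.80 and 14.8 CPM in their peri-infarct tissue. HPBCD mice 1 to 5 had 2.45, 3.58, 3.93, 3.27 and 2.03 CPM in contralateral and 14.2, 12.6, 11.7, 16.1 and 13.9 CPM in peri-infarct tissue. All 5 vehicle mice had more Enpp6 beside the infarct than on the other side, yet the groups overlapped, mice 2 and 4 being low in both tissues. The log2 difference in vehicle mice was 0.80 (SE 0.47, adjusted p = 0.246), and with the mouse as a term it was 0.83 (adjusted p = 0.0155). It was 0.52 (adjusted p = 0.486) without that term and without the peri-infarct library of mouse 5. In HPBCD mice the groups did not overlap and the log2 difference was 2.17 (SE 0.18, adjusted p = 1.37e-06).

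Counting groups that do not overlap, 3 of the 10 genes (Pdgfra, Cspg4 and Megf11) were apart in vehicle mice, 2 upwards and 1 downwards, where 13.4% of all genes were (6.72% upwards and 6.70% downwards). In HPBCD mice 9 of the 10 were apart, 8 upwards and 1 downwards, where 42.5% of all genes were (24.3% and 18.3%). Leaving out any 1 library kept all 4 calls in vehicle mice and all 9 in HPBCD mice.

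**Figure D2:**
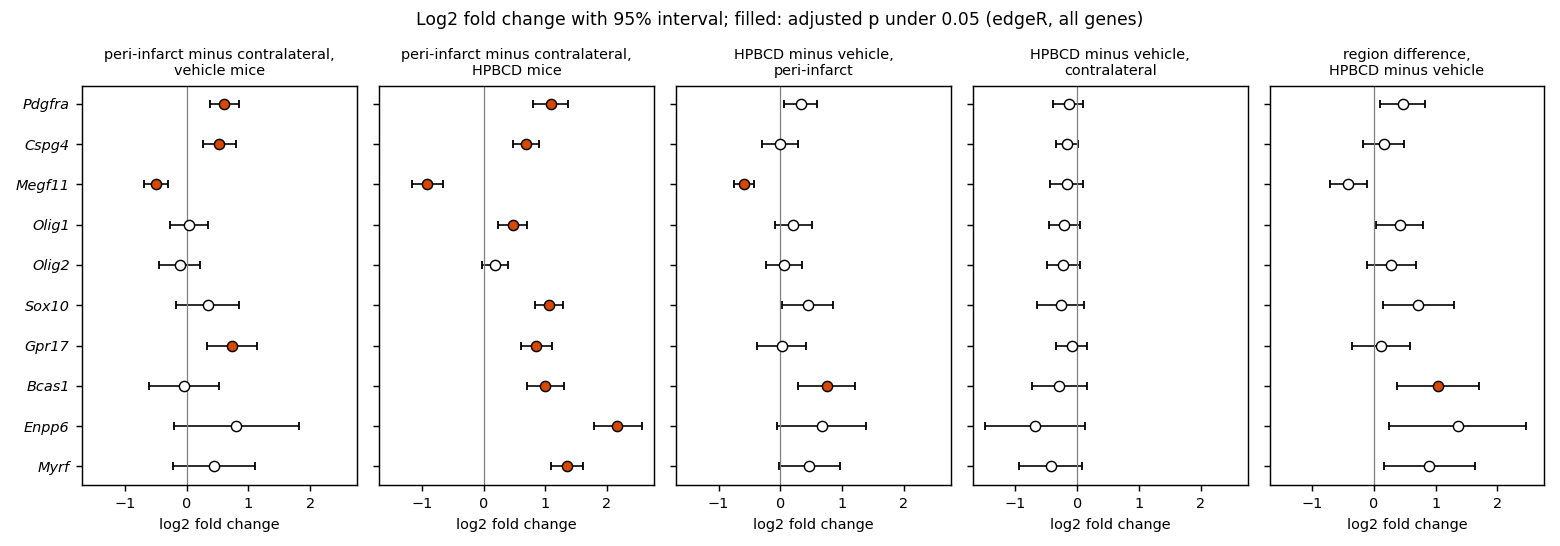
Log2 fold change (x axis) with its 95% interval for the 10 genes in the 4 comparisons of 2 groups and in the region by treatment interaction. The fits held no term for the mouse. Filled points passed an adjusted p of 0.05 over all genes: 4 genes in vehicle mice, 9 in HPBCD mice, 2 between treatments in peri-infarct tissue, 0 in contralateral tissue and 1 in the interaction.

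Treatment was then compared within each tissue, with the same libraries as above and with directions that hold only if the labels name the treatments correctly. In peri-infarct tissue Bcas1 was higher in the libraries labelled HPBCD than in those labelled vehicle (1.68-fold), Megf11 was lower (0.664-fold), and the other 8 genes did not pass the test. Of all genes tested there, 21.4% were called (12.4% higher and 9.00% lower), so 2 of 10 is close to that share. Those 3471 genes became 823 without the HPBCD library of mouse 3 and 5339 without that of mouse 2. Megf11 fell by 0.59 on the log2 scale (SE 0.07, adjusted p = 0.0101), its 5 HPBCD libraries (13.5 to 14.6 CPM) all lying below the 5 vehicle libraries (19.7 to 22.4 CPM). Megf11 was the only one of the 10 with groups apart in this comparison, where 13.4% of all genes were (7.46% upwards and 5.98% downwards). For Bcas1 the difference was 0.75 (SE 0.21, adjusted p = 0.0309) and the groups overlapped, at 231 to 505 CPM in vehicle and 491 to 822 CPM in HPBCD libraries. The Bcas1 call was lost when any 1 of 6 peri-infarct libraries was left out (vehicle mice 1, 2 and 4 and HPBCD mice 3, 4 and 5), with adjusted p up to 0.0701. The 5 neuronal markers of 6 called lower, the 8 of 8 fibroblast markers called higher and the 3 of 12 mature myelin genes called higher in this comparison moved beside these genes, and their part was not tested.

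Between treatments in peri-infarct tissue, Pdgfra differed by 0.33 (interval 0.06 to 0.60, adjusted p = 0.0758), Sox10 by 0.44 (interval 0.03 to 0.85, adjusted p = 0.103), Enpp6 by 0.67 (interval -0.05 to 1.39, adjusted p = 0.151) and Myrf by 0.47 (interval -0.03 to 0.97, adjusted p = 0.146). The 5 HPBCD libraries lay close together for Myrf (71.9 to 88.0 CPM), and the vehicle libraries lay below them except that of mouse 5 (98.6 CPM), which lay above. For Enpp6 the vehicle library of mouse 5 (14.8 CPM) lay within the HPBCD range (11.7 to 16.1 CPM) and the other 4 below it. Without the vehicle library of mouse 5, Myrf was at 0.74 (adjusted p = 0.0250) and Sox10 at 0.62 (adjusted p = 0.0321). Without the vehicle library of mouse 3, Pdgfra was at 0.41 (adjusted p = 0.0249), and without the HPBCD library of mouse 2 it was at 0.38 (adjusted p = 0.0351). With every library kept, Pdgfra also passed with library totals (0.40, adjusted p = 0.0426), with all 4 groups in 1 fit (0.33, adjusted p = 0.0476) and with the replicate number as a term (0.32, adjusted p = 0.0234), as did Sox10 with that term (0.48, adjusted p = 0.0465), although the number marks no mouse shared between treatments. Cspg4 (0.997-fold, log2 interval -0.29 to 0.28), Gpr17 (0.02, interval -0.38 to 0.42), Olig1 (0.21, interval -0.08 to 0.51) and Olig2 (0.06, interval -0.23 to 0.35) did not pass.

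In contralateral tissue 0 of the 10 genes and 0 of 15469 genes (0%) were called by edgeR between treatments. At an unadjusted p under 0.05 there were 1224 genes and 0 members, the smallest member p being 0.0809 (Cspg4). DESeq2 called 56 genes and limma voom 0, and each called 0 members. All 10 log2 differences were below 0, from -0.68 for Enpp6 (interval -1.49 to 0.13) to -0.09 for Gpr17 (interval -0.35 to 0.16), with a median of -0.22 against -0.01 for all genes. These 10 values come from the same libraries, and none passed the test. For Enpp6, 3 of the 5 vehicle libraries (5.63 to 7.33 CPM) lay above all 5 HPBCD libraries (2.03 to 3.93 CPM), and those of mice 2 and 4 (1.47 and 2.66 CPM) did not. Groups were apart for 0 of the 10 genes and for 1.51% of all genes (0.957% upwards and 0.549% downwards).

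Whether the region difference itself differed between treatments was tested by the interaction over all 20 libraries. Of the 10 genes only Bcas1 passed, with a region difference larger in HPBCD mice by 1.04 on the log2 scale (SE 0.32, interval 0.37 to 1.70, adjusted p = 0.0459), and 9.41% of all genes passed (5.03% higher and 4.38% lower). That share is 1577 genes, which became 529 without the vehicle peri-infarct library of mouse 2, 3121 without the HPBCD peri-infarct library of mouse 2 and 99 without both contralateral libraries that stood apart. The Bcas1 call was lost in 15 of the 20 fits that left out 1 library, with adjusted p up to 0.0939. It stayed only without the vehicle peri-infarct library of mouse 3 or 5, the vehicle contralateral library of mouse 4, or the HPBCD peri-infarct library of mouse 1 or 2. Without both contralateral libraries that stood apart it was at 0.99 (adjusted p = 0.111). With every library kept, it was also lost with no filter on low counts (1.01, adjusted p = 0.0513) and with limma voom (0.98, adjusted p = 0.0656). The interaction was 1.36 for Enpp6 (interval 0.24 to 2.47, adjusted p = 0.105), 0.90 for Myrf (interval 0.16 to 1.64, adjusted p = 0.105), 0.71 for Sox10 (interval 0.14 to 1.29, adjusted p = 0.0977), 0.47 for Pdgfra (interval 0.10 to 0.83, adjusted p = 0.0926) and -0.42 for Megf11 (interval -0.72 to -0.12, adjusted p = 0.0653). None of these passed, nor did Olig1 (0.42, interval 0.04 to 0.80, adjusted p = 0.138) or Olig2 (0.28, adjusted p = 0.332). With DESeq2, Megf11 was called as well as Bcas1 (-0.43 for Megf11, adjusted p = 0.0453). With each mouse as a term the same values were 1.35 for Enpp6 (adjusted p = 0.0199), 0.90 for Myrf (0.0250), 0.70 for Sox10 (0.0271), 0.41 for Olig1 (0.0200) and 0.99 for Bcas1 (0.0241), and all 5 passed, where 1830 of the 16758 genes tested did. With 1 library left out and no such term, Sox10 and Myrf passed without the vehicle peri-infarct library of mouse 5 (0.91 and 1.18) or the vehicle contralateral library of mouse 4 (0.84 and 1.06), Pdgfra without the vehicle peri-infarct library of mouse 3 (0.55) or the HPBCD peri-infarct library of mouse 2 (0.56), and Megf11 without the HPBCD contralateral library of mouse 3 (-0.49). For Cspg4 and Gpr17 the interaction was 0.16 (interval -0.17 to 0.48) and 0.11 (interval -0.36 to 0.58), and neither passed in either fit.

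**Figure D3:**
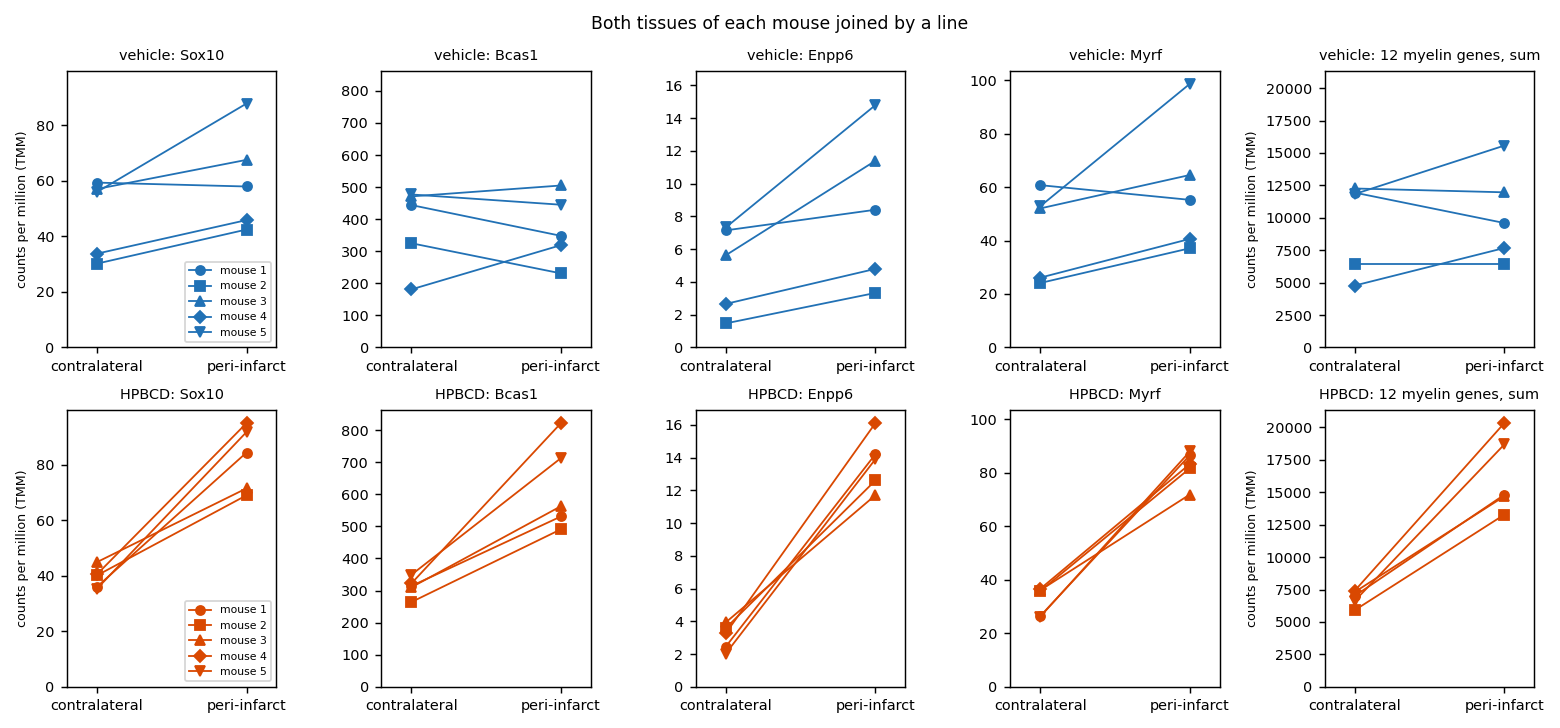
CPM (TMM-scaled, axes from 0) of Sox10, Bcas1, Enpp6, Myrf and the sum of 12 mature myelin genes in the 2 tissues of each mouse, joined by a line, with vehicle mice above and HPBCD mice below. Vehicle mice 2 and 4 lie low in both tissues for Sox10, Enpp6 and Myrf, and every HPBCD line goes up.

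Vehicle mice differed most from each other in Enpp6 and Myrf. The coefficient of variation over the 5 vehicle contralateral libraries was 54.8% for Enpp6, 39.0% for Myrf, 33.5% for Bcas1 and 29.7% for Sox10, against 11.9% for Pdgfra, 11.8% for Gpr17 and 5.95% for Cspg4. In the HPBCD contralateral libraries it was 26.0% for Enpp6, 16.9% for Myrf, 9.88% for Bcas1 and 9.85% for Sox10. In vehicle peri-infarct libraries it was 55.1% for Enpp6, 41.7% for Myrf, 30.6% for Gpr17, 30.4% for Sox10 and 29.0% for Bcas1, against 18.6% for Cspg4 and 13.3% for Pdgfra, so Gpr17 varied like Pdgfra in contralateral and like Sox10 in peri-infarct tissue. Mature myelin genes followed the same mice: summed over 12 genes, vehicle mice 1 to 5 had 11943, 6411, 12262, 4774 and 11830.4 CPM in contralateral and 9599, 6411, 11967, 7671 and 15569.6 CPM in peri-infarct tissue. HPBCD mice 1 to 5 had 7002, 5902, 7305, 7400.2 and 6618 CPM in contralateral and 14808, 13274, 14691, 20335 and 18686 CPM in peri-infarct tissue. Vehicle mice 2 and 4 were thus the lowest of the vehicle contralateral libraries, mouse 2 within the range of the HPBCD contralateral libraries and mouse 4 below it, and the other 3 lay above it. The share of white matter in each piece of tissue was not measured, and its part in these levels was not tested.

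Over the 20 libraries, with the group means removed, the levels of the 10 genes were also compared pair by pair on the log2 CPM scale. This is a description across libraries, in which 2 tissues share a mouse. Of 45 pairs, 34 had r above 0 and the median was 0.30. The closest pairs were Sox10 with Myrf (r = 0.96), Enpp6 with Myrf and Sox10 with Enpp6 (both 0.95) and Olig1 with Olig2 (0.93). Megf11 had the lowest values, -0.42 with Gpr17, -0.38 with Pdgfra and -0.34 with Enpp6. Of 16757 other genes, the 5 most like Enpp6 by this measure were Tspan2, Plekhh1, Myrf, Trim36 and Pacs2 (r of 0.95 to 0.96), and the 5 most like Pdgfra were Tmem164 (0.91), Axin2 (0.86), Cdc14b (0.84), Mxd4 and Lims1 (both 0.83).

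A ratio within a library does not depend on its scaling and sets members against each other. The log2 ratio of Olig1 to Olig2 counts was 1.35 ± 0.09 and 1.5 ± 0.10 (SD, n = 5) in the contralateral and peri-infarct tissue of vehicle mice and 1.36 ± 0.09 and 1.65 ± 0.05 in that of HPBCD mice. The HPBCD groups, at 1.3 to 1.53 and 1.59 to 1.69, did not overlap, while those of vehicle mice, at 1.22 to 1.48 and 1.35 to 1.62, did. Mouse by mouse this ratio was higher beside the infarct in 5 of 5 vehicle mice and in 5 of 5 HPBCD mice. For Enpp6 to Pdgfra the log2 ratio was -3.28 ± 1.15 and -3.04 ± 0.86 in vehicle contralateral and peri-infarct libraries and -3.61 ± 0.27 and -2.50 ± 0.28 in those of HPBCD mice. Its HPBCD groups, at -4.08 to -3.43 and -2.98 to -2.23, were also apart, and its vehicle groups overlapped across most of their range. It was higher beside the infarct in 4 of 5 vehicle mice and 5 of 5 HPBCD mice. The ratio of Bcas1 to Pdgfra was higher beside the infarct in 1 of 5 vehicle mice and 3 of 5 HPBCD mice. It was 3.16 ± 0.75 and 2.54 ± 0.38 in vehicle contralateral and peri-infarct libraries and 3.10 ± 0.31 and 2.99 ± 0.35 in HPBCD ones, with overlapping groups in both. For Cspg4 to Pdgfra it was -1.12 ± 0.22 and -1.22 ± 0.15 in vehicle mice and -1.14 ± 0.24 and -1.54 ± 0.25 in HPBCD mice, and these groups overlapped too, although it was lower beside the infarct in 5 of 5 HPBCD mice and 3 of 5 vehicle mice.

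**Figure D4:**
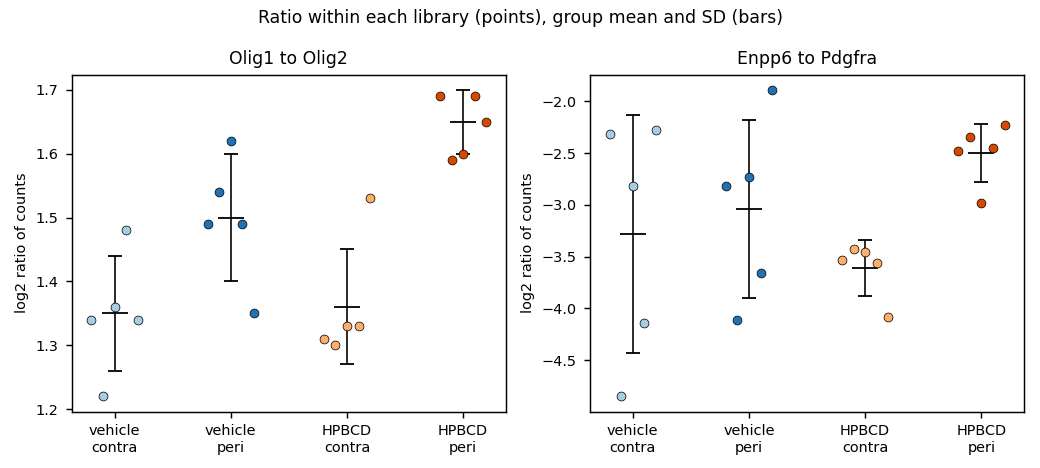
Log2 ratio of counts within each library for Olig1 to Olig2 and Enpp6 to Pdgfra (y axes, not starting at 0), with points for libraries and bars for the mean and SD of 5. Both ratios separate the HPBCD peri-infarct from the HPBCD contralateral libraries and overlap between the vehicle groups.

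Per kilobase of exon, which allows genes to be set against each other, Bcas1 was the most abundant of the 10 in each group (82.7 ± 8.17 to 165 ± 36.8 CPM per kb), followed by Olig1 (47.2 ± 4.21 to 65.5 ± 9.38). Sox10 and Olig2 came next at 12.9 ± 1.27 to 27.0 ± 3.85 and 15.7 ± 1.52 to 18.2 ± 3.39. Their order changed: Olig2 stood above Sox10 in both contralateral groups and Sox10 above Olig2 in both peri-infarct groups, and only in HPBCD peri-infarct tissue did the 2 genes not overlap. Myrf, Pdgfra and Gpr17 formed the next tier, at 3.46 ± 0.518 to 9.62 ± 0.743, with neighbours overlapping in all 4 groups. Cspg4, Megf11 and Enpp6 were lowest. Enpp6 was last in 3 groups, at 0.476 ± 0.124 CPM per kb in HPBCD contralateral tissue, and Megf11 was last in HPBCD peri-infarct tissue, at 1.25 ± 0.0383.

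Other genes that belong to the lineage or act on it were grouped by role. The shares of all genes to set beside each list count are 10.5% called higher and 9.70% lower in vehicle mice. In HPBCD mice they are 30.3% and 24.3%. Among 10 growth factors and receptors of OPCs, 4 of the 9 tested were higher beside the infarct in vehicle mice and 7 in HPBCD mice, with none lower and medians of 0.51 and 0.83. Fgfr1, a receptor for the OPC mitogen FGF2, went from 46.8 ± 5.95 to 85.3 ± 16.1 CPM in vehicle mice (log2 0.85, SE 0.14, adjusted p = 0.00292) and from 49.1 ± 4.15 to 162 ± 27.5 CPM in HPBCD mice (1.72, SE 0.12, adjusted p = 7.17e-07). Lif, a cytokine that favours oligodendrocyte survival, rose 2.47-fold and 5-fold at low levels (0.381 ± 0.0650 to 1.95 ± 0.517 CPM). Pdgfa, the ligand of the Pdgfra receptor, was at 0.04 in HPBCD mice and not called in any comparison. Whole tissue does not show which cells carried the genes of these lists. Astrocyte markers (5 of 6) and microglia and macrophage markers (6 of 6) were also called higher in each treatment, and their part was not tested.

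Of 11 genes that restrain differentiation, 3 were higher and 0 lower in vehicle mice (median 0.07), and 5 were higher and 3 lower in HPBCD mice (median 0.34). Id4, an inhibitor of basic helix-loop-helix factors that astrocytes and other glia also express, was at 0.79 (SE 0.25, adjusted p = 0.0418) in vehicle mice, a call kept without the peri-infarct library of mouse 2 or the contralateral one of mouse 1 and lost without any other (8 of 10), and rose by 2.02 (SE 0.15, adjusted p = 8.15e-07) in HPBCD mice. Notch1, a receptor that keeps precursors immature, rose by 0.86 (adjusted p = 0.00467) and by 1.42 (adjusted p = 2.13e-05). Sox5, which opposes Sox10, and Lingo1, a membrane protein that limits myelination and is abundant in neurons, fell by 0.88 (adjusted p = 4.62e-04) and by 0.96 (adjusted p = 0.00184) in HPBCD mice. In vehicle mice they were at -0.21 (adjusted p = 0.234) and -0.08 (adjusted p = 0.685).

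Of 8 other transcription factors of the lineage, 1 was called higher in vehicle mice and 7 in HPBCD mice, with all 8 fold changes above 0 in both (medians 0.23 and 0.78). Tcf7l2, a Wnt effector of newly formed oligodendrocytes, went from 4.85 ± 0.434 to 7.73 ± 0.798 CPM in vehicle mice (0.66, adjusted p = 0.00499) and from 5.03 ± 0.687 to 11.8 ± 2.72 CPM in HPBCD mice (1.23, adjusted p = 5.17e-05). Nkx6-2 was at 0.13 in vehicle mice (adjusted p = 0.780) and rose by 1.12 in HPBCD mice (adjusted p = 3.42e-05). Without the vehicle peri-infarct library of mouse 2, 2 of the 8 were called in vehicle mice.

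Of 9 other OPC markers, 5 were higher in vehicle mice and 6 in HPBCD mice, none was called lower in either, and medians were 0.41 and 0.97. C1ql1, a secreted protein of OPCs, rose from 9.82 ± 1.14 to 16.6 ± 2.83 CPM in vehicle mice (0.75, adjusted p = 0.00391) and from 8.48 ± 0.948 to 25.5 ± 2.86 CPM in HPBCD mice (1.59, adjusted p = 5.52e-07). The matrix protein gene Matn4 rose by 1.18 (adjusted p = 0.00713) and by 2.16 (adjusted p = 2.32e-06). Without the vehicle contralateral library of mouse 3 or of mouse 5, 3 of the 9 were called in vehicle mice, and 3 were called with the mouse as a term.

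Of 7 tested markers of committed and newly formed oligodendrocytes, 3 were higher and 0 lower in vehicle mice, and 3 were higher and 1 lower in HPBCD mice (medians 0.22 and 0.32). The count in HPBCD mice is close to the share over all genes, of which 54.6% were called there. Kif19a rose by 0.90 (SE 0.23, adjusted p = 0.0188) and by 2.03 (SE 0.17, adjusted p = 1.59e-06), and Itpr2, a calcium channel of the internal stores used to name this stage, rose by 0.63 (adjusted p = 0.0224) and by 0.97 (adjusted p = 2.08e-05). Kif19a is a motor of cilia as well, and 5 of 5 ependymal cell markers were called higher in HPBCD mice, where their sum was 7.19 to 12.2 CPM in contralateral and 80.3 to 158 CPM in peri-infarct libraries. In vehicle mice 1 of the 4 tested was called, with sums of 6.14 to 40.6 and 22 to 53.9 CPM, with their part not tested. Tmem163, a zinc transporter, fell by 0.82 in HPBCD mice (SE 0.24, adjusted p = 0.0115), with overlapping groups. Without the vehicle contralateral library of mouse 5, 1 of the 7 (Kif19a) was called in vehicle mice and Itpr2 was at 0.61 (adjusted p = 0.0513).

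Of 12 mature myelin genes, 0 were called in vehicle mice by edgeR, DESeq2 or limma voom (0 with an unadjusted p under 0.05, median 0.14) and 12 were higher in HPBCD mice (median 1.17). With the mouse as a term 1 of the 12, Cldn11, was called in vehicle mice (0.66, adjusted p = 0.0461). Cldn11, the claudin of the myelin sheath, which the meninges also express, rose by 2.01 in HPBCD mice (SE 0.15, adjusted p = 8.48e-07). Between treatments in peri-infarct tissue 3 of the 12 were called, 0 without the HPBCD library of mouse 3 and 11 without the vehicle library of mouse 5. In the interaction 4 of the 12 passed, 11 with the mouse as a term, 0 without the vehicle peri-infarct library of mouse 1 and 10 without that of mouse 5.

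**Figure D5:**
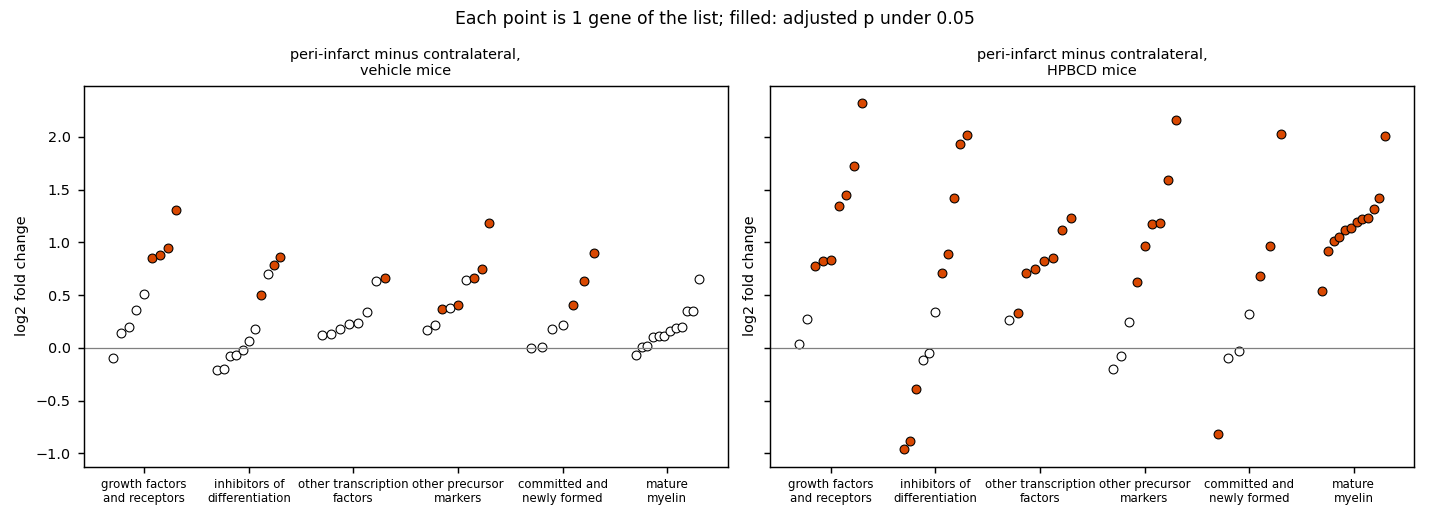
Log2 fold change of each tested gene in 6 lists of genes that belong to the lineage or act on it, peri-infarct minus contralateral, in vehicle mice (left) and HPBCD mice (right). Each point is 1 gene, filled where the adjusted p over all genes was under 0.05, and the mature myelin genes go from 0 of 12 filled on the left to 12 of 12 on the right. Over all genes, 20.2% were called on the left and 54.6% on the right.

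Other tissue markers also differed between the tissues compared. The 8 striatal neuron markers were all called higher beside the infarct in HPBCD mice, with sums of 204 to 248 CPM in contralateral and 644 to 2003 CPM in peri-infarct libraries, none at 0 throughout. In vehicle mice 0 of the 8 were called by edgeR (0 with an unadjusted p under 0.05), with sums of 197 to 3375 CPM and 333 to 1909 CPM. The 3375 CPM belongs to the contralateral library of mouse 1. The other vehicle contralateral libraries, at 197 to 283 CPM, lay below every vehicle peri-infarct library, as in HPBCD mice. Astrocyte markers were called higher for 5 of 6 genes in each treatment and microglia and macrophage markers for 6 of 6. Over all genes, 10.5% were called higher in vehicle mice and 30.3% in HPBCD mice. The part of regional make-up in the differences of the 10 genes was not tested.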

How the data were processed

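Per the labels and methods, the authors made poly(A)-selected stranded libraries (TruSeq Stranded mRNA), sequenced them as paired reads, converted with bcl2fastq 2.19, trimmed with Trimmomatic 0.32, aligned to GRCm38 with STAR 2.5.2b and used htseq-count to count reads over genes. As deposited, each library is a list of raw counts for 46078 genes. The annotation release and strand option are not given in the sources used here. Reads aligning to more than 1 place were not assigned to genes, and 5 lines without a gene, which hold these, ambiguous and unassigned reads, were left out of totals and tests.

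Here, edgeR 4.0.16 in R 4.3.3 (TMM factors, filterByExpr, quasi-likelihood F test) was run on the 2 groups of each comparison, or on all 20 libraries for the interaction, with Benjamini-Hochberg adjustment over all genes and a threshold of 0.05. Each SE is the log2 fold change divided by the square root of F, and intervals are 95% by the fit's degrees of freedom. Levels are CPM with TMM factors over 20 libraries, and log2 CPM used a prior count of 2. A count of 0 was read as up to 3 counts, which covers counting error only. Coordinates and exon lengths are from GENCODE M21, which held 98.16% of the genes, promoter sequences from RefSeq.

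The titles give a replicate number, and the deposited names give same-numbered libraries of a treatment a shared identifier, read here as that of the mouse, although no source used here says so in words. The terms for the mouse rest on this reading. Over 10 mice, deviations from the group means correlated between the tissues with a mean r of 0.0957, above 0.1 in 5. Numbers do not pair mice across treatments. Alternatives were other scaling (RLE, library totals), no filter, DESeq2 1.42.0, limma 3.58.1 voom, all 4 groups in 1 fit, each library left out, and a replicate block.

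The members and lists were chosen with earlier results of these data known. All 10 members were described, and from each list the 2 genes called higher and the 2 called lower with the smallest p in the region comparison of HPBCD mice were named, except 1 that is not reported here. Genes most like Pdgfra and Enpp6 are the 5 with the highest Pearson r over libraries. Of the list symbols, 9630013A20Rik and Dlx6os1 were not matched.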

Additional observations from a re-analysis of the deposited data

Results flagged for a closer look

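Pdgfra in the vehicle peri-infarct library of mouse 3 was at 75.9 CPM, apart from the other 4 of its group, of which the nearest was at 60.9 CPM, a gap of 0.721 of the group's range. Cspg4 in the HPBCD contralateral library of mouse 2 was at 19.1 CPM, against 16.1 CPM for the nearest of the other 4 (0.882 of the range). Of 40 groups of 5 libraries examined, these 2 held a library that stood apart, and chance gives about 1 in 20 groups.

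The region difference of Bcas1 differed between treatments by 1.04 on the log2 scale in the interaction term of edgeR's quasi-likelihood test (adjusted p = 0.0459). Leaving out 1 library lost this call in 15 of 20 fits, and the other 9 genes did not pass this test.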

How the results depend on the processing

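Among the values of the 10 genes under the alternatives that kept all libraries or left out both contralateral libraries that stood apart, 359 kept their direction and side of the threshold, 12 became called, 3 lost their call and 6 changed sign without being called. The 4 calls between tissues in vehicle mice and the 9 in HPBCD mice were made in every alternative. Library totals alone, which move the median of all genes by over 0.1 only in HPBCD mice (0.194), added Olig2 there. The alternative without both of those libraries was chosen after seeing the data. The cause of the changes was not tested.

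With the replicate block (the mouse as a term), 6 genes were called between tissues in vehicle mice, 9 in HPBCD mice and 5 in the interaction, where 1 was called without it. Over all genes the block gave 3053 (3195 without it), 8860 (8764) and 1830 (1577). Between treatments the block holds a number that marks no shared animal: it gave 4 of the 10 genes and 4375 of all genes (3471 without it) in peri-infarct tissue and 1 gene of the whole table in contralateral tissue. The block changed no other call of the 10 genes, although the uncalled difference of Cspg4 between treatments in peri-infarct tissue changed sign (0.01).

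In the contralateral comparison of treatments 0 genes were called by edgeR, 2 with no filter on low counts and 56 with DESeq2. In the interaction 0 of the 10 genes were called with no filter, with voom and without both libraries that stood apart, and 2 with DESeq2. Over all genes the interaction gave 2514 with DESeq2 and 99 without both libraries.

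Uncalled values that changed sign were, between tissues in vehicle mice, Tmem163 (-0.01 with RLE scaling, with no filter and with DESeq2, and -0.05 without both libraries), Bcas1 (0.04 with library totals and 0.03 without both libraries) and Lingo1 (0.01 with library totals). In peri-infarct tissue between treatments Cspg4 was at 0.06 with library totals, 0.02 with voom, 0.01 with the block and 0.00 with all 4 groups in 1 fit. In contralateral tissue Lingo1 was at -0.01 with library totals and -0.08 without both libraries.

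Leaving out 1 library at a time gave 2000 to 3920 genes in all between tissues in vehicle mice (lowest without the contralateral library of mouse 5), 823 to 5339 between treatments in peri-infarct tissue (without the HPBCD libraries of mice 3 and 2) and 529 to 3121 in the interaction (without the vehicle and the HPBCD peri-infarct library of mouse 2). Of the 10 genes, 1 to 4 were called between treatments in peri-infarct tissue, the most without the vehicle library of mouse 5, and 0 to 3 in the interaction. Signs changed among uncalled values between tissues in vehicle mice for Olig1 (-0.04 to 0.13), Bcas1 (-0.23 to 0.08), Lingo1 (-0.14 to 0.03), Nkx6-2 (-0.05 to 0.32) and Tmem163 (-0.15 to 0.32). The same held in peri-infarct tissue for Cspg4 (-0.06 to 0.11), Olig2 (-0.02 to 0.15) and Gpr17 (-0.10 to 0.21). In contralateral tissue it held for Lingo1 (-0.06 to 0.12), Tcf7l2 (-0.02 to 0.11), Itpr2 (-0.01 to 0.11) and Tmem163 (-0.29 to 0.18), and in the interaction for Gpr17 (-0.02 to 0.29).

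Depth limits Enpp6 most among the 10 genes, with 27 counts in its lowest library. Every count of the 10 genes thus lies above the limit of 3 counts. That limit is 0.135 to 0.208 CPM by library totals alone, without TMM factors. The width of the intervals rests on the number of mice per group (5) and on the spread between them. Whole tissue pieces were sequenced, so the levels do not separate cell number from RNA per cell.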
